A study of Mus musculus with 2 samples.

Results

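The Hox genes of the mouse's 4 Hox clusters were followed in single cells of an embryoid and of a blastocyst. Members were all genes whose symbol is Hox, a cluster letter from a to d and a paralog number. The mouse gene annotation lists 39 of them, 38 have a row in the embryoid table and 30 in the blastocyst table, out of 22802 gene symbols in the tables together. Hoxd4 was not analysed here. The rule reads gene symbols only.

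Hox genes encode homeodomain transcription factors that assign position along the body axis. Within each cluster the genes lie in the order in which they are first switched on and in which they act from head to tail, so low paralog numbers (group 1) mark the anterior end and high numbers (group 13) the posterior end. Polycomb complexes hold the clusters silent in pluripotent cells, Wnt, Fgf, retinoic acid and Cdx factors open them from the anterior end, and Pbx and Meis proteins bind DNA together with Hox proteins. Hox genes are studied mainly in the trunk of the embryo, the limbs and the allantois. Primitive endoderm, trophectoderm and naive epiblast are formed before that programme starts.

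The data came from 2 single-cell RNA-seq libraries made with the BD Rhapsody whole transcriptome kit, which tags each captured polyadenylated molecule with a unique molecular identifier (UMI). The embryoid was an aggregate of mouse embryonic stem (ES) cells and XTE cells. The ES cells came from Lifeact-RFPRuby mice and were kept in serum with PD0325901, CHIR99021 and Lif, which are a MEK inhibitor, a GSK3 inhibitor and a self-renewal cytokine. XTE cells were a line obtained by reprogramming of ES cells that carry a Gata6-H2B:venus reporter, grown in N2B27 with CHIR99021, BMP4, Fgf4, heparin and Activin. For each aggregation 10000 ES cells and between 50000 and 80000 XTE cells were combined in AggreWell plates for 48 h and moved to cell-repellent plates for another 48 h. The comparison sample was whole blastocysts of the B6C3F1 cross at embryonic day 4.5. For each library 6000 cells were loaded, and each condition had 1 library. The spread between embryoids or litters is therefore unknown, and no test between conditions is possible. The 95% intervals given below cover counting error only, and are exact Poisson for levels and fold differences and exact Clopper-Pearson for shares. For expected shares at a reduced depth the Clopper-Pearson formula was applied to an expected count, so those intervals are approximate. Intervals of levels, fold differences and shares of UMIs treat UMIs as independent. They can be too narrow where few cells hold many of the UMIs.

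The embryoid table held 5546 barcodes and 28923930 UMIs, of which 3002 were Hox UMIs, and that of the blastocyst held 1288 barcodes, 11047555 UMIs and 553 Hox UMIs. Filtering kept 5328 and 1080 cells, with medians of 4768.5 and 9273 UMIs. The libraries shared 9 barcodes, 7 of them among kept cells. Cells were clustered without the Hox genes, and clusters were named from marker lists. In the embryoid 9 clusters (4698 cells) were endoderm-like, with all 16 primitive endoderm markers at 20 CPM (UMI counts scaled to 1000000 per group) or more and Pou5f1 at 0 UMIs. A cluster of 107 cells was epiblast-like, with all 14 epiblast markers at that level. A cluster of 108 cells led by Col3a1, Hand1 and Col1a2 had all 15 fibroblast and fibrillar collagen markers at that level and is called fibrillar collagen cells. A cluster of 330 cells led by Slpi, Fbln2, Vim and Tnc had at least 10 times the median Vim level of the embryoid clusters and is called Vim-high cells. The fibrillar collagen cluster also passed that Vim level, with 1294 CPM against 2949 CPM in Vim-high cells, and was named from its markers first. The best-scoring list of the Vim-high cluster was early mesoderm, with T, Mixl1 and Kdr at 29.4, 25.1 and 23.2 CPM. The list's other genes in the tables were lower there. Evx1, Hand1, Foxf1 and Tbx6 were at 10.03, 5.01, 4.39 and 1.25 CPM, and Mesp1 and Mesp2 at 0 UMIs. The list summed to 468 CPM in fibrillar collagen cells and to 98.4 CPM in the Vim-high cluster. The Vim level took precedence over that list, so the cluster is given no cell type name. None of the list's genes was among its 10 leading genes. The same was so for the primitive endoderm list in some endoderm-like clusters, such as that led by Ibsp. In the Vim-high cluster 11 of the 15 fibroblast markers were at 20 CPM or more. Its primitive endoderm markers summed to 4222 CPM against 18024 in endoderm-like cells. Of the 16 primitive endoderm markers, 11 reached 20 CPM in Vim-high, 12 in fibrillar collagen and 11 in embryoid epiblast-like cells. Their sums in the last 2 groups were 3704 and 1890 CPM. The blastocyst held 447 cells of primitive endoderm type, called PrE-like, 376 of trophectoderm type, called TE-like, and 257 epiblast-like cells. Of the 14 epiblast markers, 10 also reached 20 CPM in PrE-like cells and 6 in TE-like cells. Scrublet, a doublet caller, marked 0 of the 5328 embryoid cells and so did not work there, and 17 blastocyst barcodes it marked were removed.

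On mouse genome build GRCm38 (mm10), HoxA occupies 105 kb of chromosome 6 (52155590 to 52260880) and holds 11 of the members. HoxB spans 174 kb of chromosome 11 (96194316 to 96368256) with 10 members. HoxC spans 116 kb of chromosome 15 (102921103 to 103036852) with 9, and HoxD 96.8 kb of chromosome 2 (74668310 to 74765142) with 9. The genes are packed closely enough that 9 members share exonic bases with another gene on their own strand and 10 with a gene on the opposite strand. Hoxd3 shared 62.3% of its exonic bases on its own strand, and Hoxb3 shared 52.9% with the antisense gene Hoxb3os. How the authors' counting treated strand and overlapping genes is not given in the sources used here, so values of Hoxd3 and Hoxb3 are uncertain in that respect.

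Promoter sequences are shown for the 3 members that stand for the main patterns below and have an entry in RefSeq's table for this build: Hoxb8 for the Vim-high cells, Hoxd13 for the fibrillar collagen cells and Hoxd3 for the trophectoderm-like cells. Each runs 5′ to 3′ on the plus strand, which is the gene's own strand, and lies in the 250 bases before the RefSeq start. Capitals mark matches, on either strand, to a Cdx-type motif (TTTATG), a Pbx-Hox motif (TGATNNAT) or a TATA box (TATAAA), and matches can overlap, as those of the TATA box on both strands do before Hoxd13.
Hoxb8 (chr11:96281655-96281904): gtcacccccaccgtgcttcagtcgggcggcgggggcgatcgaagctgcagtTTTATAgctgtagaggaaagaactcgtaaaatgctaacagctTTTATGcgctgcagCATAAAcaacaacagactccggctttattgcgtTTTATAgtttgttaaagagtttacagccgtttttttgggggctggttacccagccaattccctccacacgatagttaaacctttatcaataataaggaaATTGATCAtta
Hoxd13 (chr2:74667975-74668224): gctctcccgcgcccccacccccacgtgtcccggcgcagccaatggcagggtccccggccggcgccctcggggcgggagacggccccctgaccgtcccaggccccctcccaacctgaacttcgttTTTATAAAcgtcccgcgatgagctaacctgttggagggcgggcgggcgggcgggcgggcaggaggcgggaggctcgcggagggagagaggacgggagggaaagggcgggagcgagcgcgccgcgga
Hoxd3 (chr2:74711743-74711926): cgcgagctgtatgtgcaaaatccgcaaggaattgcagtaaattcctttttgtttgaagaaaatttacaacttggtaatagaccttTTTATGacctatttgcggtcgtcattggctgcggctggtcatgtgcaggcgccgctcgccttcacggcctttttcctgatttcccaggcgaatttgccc
The Hoxd3 stretch of 184 bases ends where annotated exons begin. The Hoxd13 window held 31 CG dinucleotides and the Hoxb8 window 12.

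RefSeq's table had 24 promoter entries for 22 of the 39 members. The Cdx-type motif was in 5 of the 24 windows of 250 bases against 10.8% of all 32851 promoter windows of that length, and the 5 belonged to Hoxa7, Hoxb8, Hoxd3, Hoxd4 and Hoxd11. The Pbx-Hox motif was in 4 of 24 (Hoxa2, Hoxb1, Hoxb8 and Hoxd11) against 7.68%. The TATA box was in 4 of 24 (Hoxa10, Hoxb8, Hoxd4 and Hoxd13) against 12.4%. A retinoid direct repeat (AGGTCA, then 5 bases, then AGGTCA) was in 0 of 24 and in 0.00913% of all windows. The median number of CG dinucleotides was 12.5 in the Hox windows and 6 over all windows. These matches describe letters in the windows and are not sites of binding.

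In the UMIs summed over each cell group, Hox genes were low everywhere and differed most between the groups of the embryoid. Fibrillar collagen cells had 765 Hox CPM (685 to 851, 335 UMIs), Vim-high cells 232 CPM (209 to 257, 371 UMIs) and endoderm-like cells 86.4 CPM (82.9 to 90.1, 2229 UMIs). Embryoid epiblast-like cells had 32.2 CPM (20.4 to 48.3, 23 UMIs). In the blastocyst TE-like cells had 73.6 CPM (65.0 to 83.0, 264 UMIs), PrE-like cells 42.0 CPM (35.9 to 48.7, 173 UMIs) and epiblast-like cells 36.5 CPM (29.6 to 44.6, 96 UMIs). CPM involves no division by transcript length, and members are ordered below by captured UMIs only. The intervals of the fibrillar collagen, Vim-high and endoderm-like cells lay apart from each other. Those of the endoderm-like and TE-like cells touched, the PrE-like interval lay below both, and the PrE-like and both epiblast-like groups overlapped. When levels were rescaled by the median of ratios over all genes, the TE-like level moved to 94.98 CPM and lay above the endoderm-like level of 81.4 CPM. That scaling shifted the TE-like profile by 0.37 on the log2 scale.

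The share of cells with at least 1 Hox UMI followed a similar order. It was 75.9% of fibrillar collagen cells, 51.2% of Vim-high cells, 32.9% of endoderm-like cells and 12.1% of embryoid epiblast-like cells, with median depths of 3349, 4316, 4847.5 and 6385 UMIs. In the blastocyst it was 41.2% of TE-like, 26.2% of PrE-like and 29.96% of epiblast-like cells, with medians of 8605.5, 9410 and 9861 UMIs. In the embryoid the order of the shares was the reverse of that of the median depths. The shares were also computed as the expected share after every cell is reduced to 2000 UMIs, leaving out shallower cells (278 endoderm-like, 27 Vim-high, 11 fibrillar collagen, 4 and 10 epiblast-like, 36 PrE-like and 12 TE-like cells). At that depth they were 61.9% (51.5 to 71.6), 30.6% (25.4 to 36.1), 15.6% (14.6 to 16.7) and 4.5% (1.4 to 10.5) in the embryoid. They were 12.8% (9.54 to 16.7) in TE-like, 8.36% (5.87 to 11.5) in PrE-like and 7.41% (4.47 to 11.4) in epiblast-like cells of the blastocyst. Epiblast-like cells, in which the clusters are known to be largely silent, are the comparison for background in each library, with limits. In the embryoid the 13 Hox-positive epiblast-like cells also held all 15 Col3a1 UMIs of that group, and in the blastocyst 54 of the 96 Hox UMIs of these cells were of Hoxc13. The 3 other embryoid groups lay above the embryoid value. In the blastocyst the intervals of all 3 groups overlapped at 2000 UMIs. At 4000 UMIs TE-like cells had 24.4% (19.9 to 29.4), above epiblast-like cells with 13.8% (9.6 to 19.0), and PrE-like cells had 14.4% (10.9 to 18.5).

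**Figure D1:**
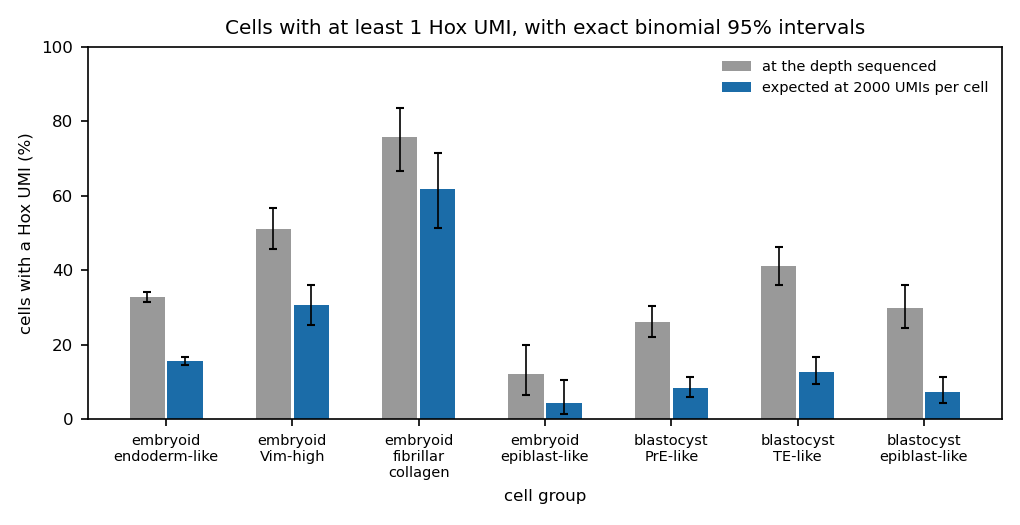
Percent of cells with at least 1 Hox UMI in each cell group (vertical axis), at the depth sequenced (grey) and computed for 2000 UMIs per cell (blue), with 95% intervals from 1 library per condition. The grey intervals are exact binomial. The blue ones apply the same formula to an expected count and are approximate. The fibrillar collagen bar at 2000 UMIs is at 61.9% and that of the embryoid epiblast-like cells at 4.5%.

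Exactly 1 Hox UMI was held by 1086 of 1547 positive endoderm-like cells, 95 of 169 Vim-high cells and 23 of 82 fibrillar collagen cells. The highest cell had 7 in the endoderm-like, 31 in the Vim-high and 24 in the fibrillar collagen group. The 5 highest cells held 22.7% of the Hox UMIs of the fibrillar collagen group, 22.4% of the Vim-high group and 1.44% of the endoderm-like group. After 1 random reduction of each cell to 2000 UMIs, 17 of 97 fibrillar collagen cells (17.5%, 10.6 to 26.6) held 3 or more different Hox genes, with a maximum of 9. The same held for 4 of 303 Vim-high cells (1.32%) and 7 of 4420 endoderm-like cells (0.158%). Cells with several Hox genes thus had their highest share among the fibrillar collagen cells. There 22 of 31 cells with a HoxD UMI (71.0%, 52.0 to 85.8) also had a UMI of another cluster, against 31 of 66 without one (47.0%, 34.6 to 59.7).

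Cell groups also differed in which cluster the UMIs came from. Endoderm-like cells had 37.4 CPM of HoxC, 20.4 of HoxB, 16.7 of HoxA and 11.9 of HoxD, so that HoxC made up 43.2% of their Hox UMIs. In Vim-high cells HoxB was at 152 CPM and made up 65.2% (60.1 to 70.1), with HoxA, HoxD and HoxC at 32.6, 25.7 and 22.6 CPM. Fibrillar collagen cells had all 4 clusters at more than 100 CPM, with 244 of HoxD, 217 of HoxB, 164 of HoxA and 139 of HoxC. In the blastocyst HoxC made up 51.4% in PrE-like cells and 67.7% in epiblast-like cells, whereas in TE-like cells HoxD was first with 38.3%.

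**Figure D2:**
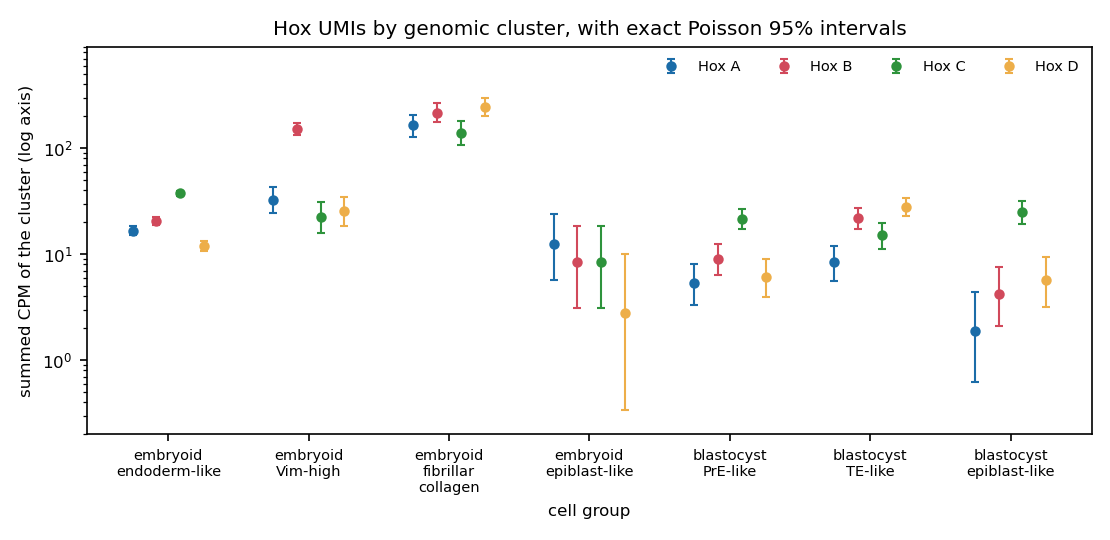
Summed CPM of the HoxA, HoxB, HoxC and HoxD members in each cell group (vertical log axis), with exact Poisson 95% intervals from 1 library per condition. HoxB stands above the other clusters in Vim-high cells at 152 CPM, and HoxD is first in fibrillar collagen cells at 244 CPM.

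By paralog number, genes of groups 1 to 3 had their highest level in fibrillar collagen cells, at 57.1 CPM (36.9 to 84.2, 25 UMIs) in 17 of 108 cells. TE-like cells had 12.5 CPM (9.15 to 16.8, 45 UMIs), of which 39 UMIs were Hoxd3. As a share of the Hox UMIs these genes were 2.78% in endoderm-like, 3.23% in Vim-high, 7.46% in fibrillar collagen, 0.58% in PrE-like and 17.0% in TE-like cells. Groups 9 to 13 made up 54.4% in endoderm-like, 50.4% in Vim-high and 55.8% in fibrillar collagen cells, and 57.8% in PrE-like cells. In TE-like cells groups 4 to 8 were first with 49.2%, and in blastocyst epiblast-like cells groups 9 to 13 made up 89.6%, of which most was Hoxc13.

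**Figure D3:**
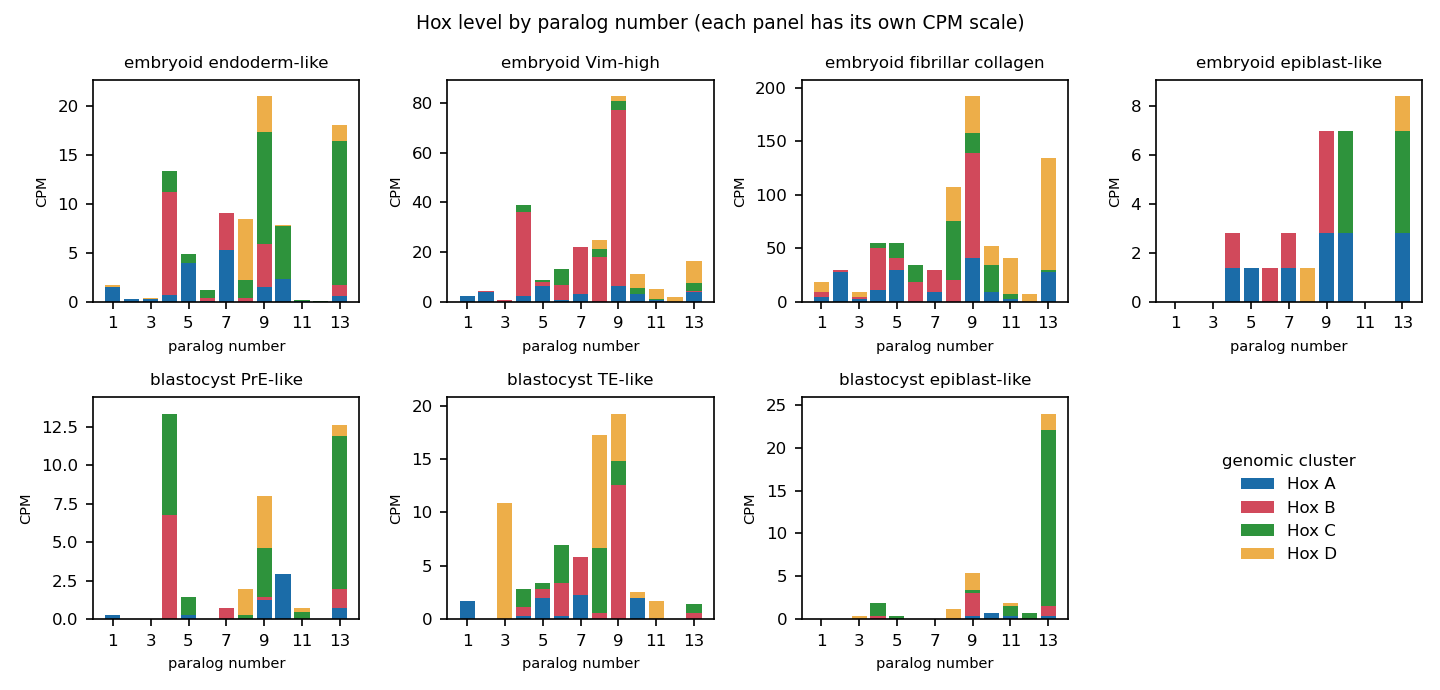
Summed CPM by paralog number (horizontal axis) in each cell group, stacked by genomic cluster; each panel has its own CPM axis and bars are sums from 1 library without error bars. Paralog 9 is highest in Vim-high cells through Hoxb9 (70.8 CPM), and paralog 13 in blastocyst epiblast-like cells through Hoxc13 (20.5 CPM).

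The single members were read by their UMIs in each group. Of the 39, 27 had at least 20 UMIs over both libraries. The other 12 had few or none, namely Hoxa3 with 10 UMIs, Hoxa6 with 3, Hoxa11 with 5, Hoxb1 with 3, Hoxb2 and Hoxb3 with 2 each, Hoxb5 with 12, Hoxc11 with 11, Hoxc12 with 3, Hoxd1 with 9, Hoxd12 with 6, and Hoxd4. Nothing further is read from them singly. A member was called higher or lower in a comparison where its CPM, with 1 CPM added, differed by at least 2-fold and where it had at least 10 UMIs in the 2 profiles together. A member can reach 10 UMIs through the group where it is high, so the counts of members below are descriptions, set beside the percentage of all genes called the same way. That percentage was computed only for the main choice of cells and with 1 CPM added. Counts of members under other settings have no such percentage beside them and are not read against all genes.

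**Figure D4:**
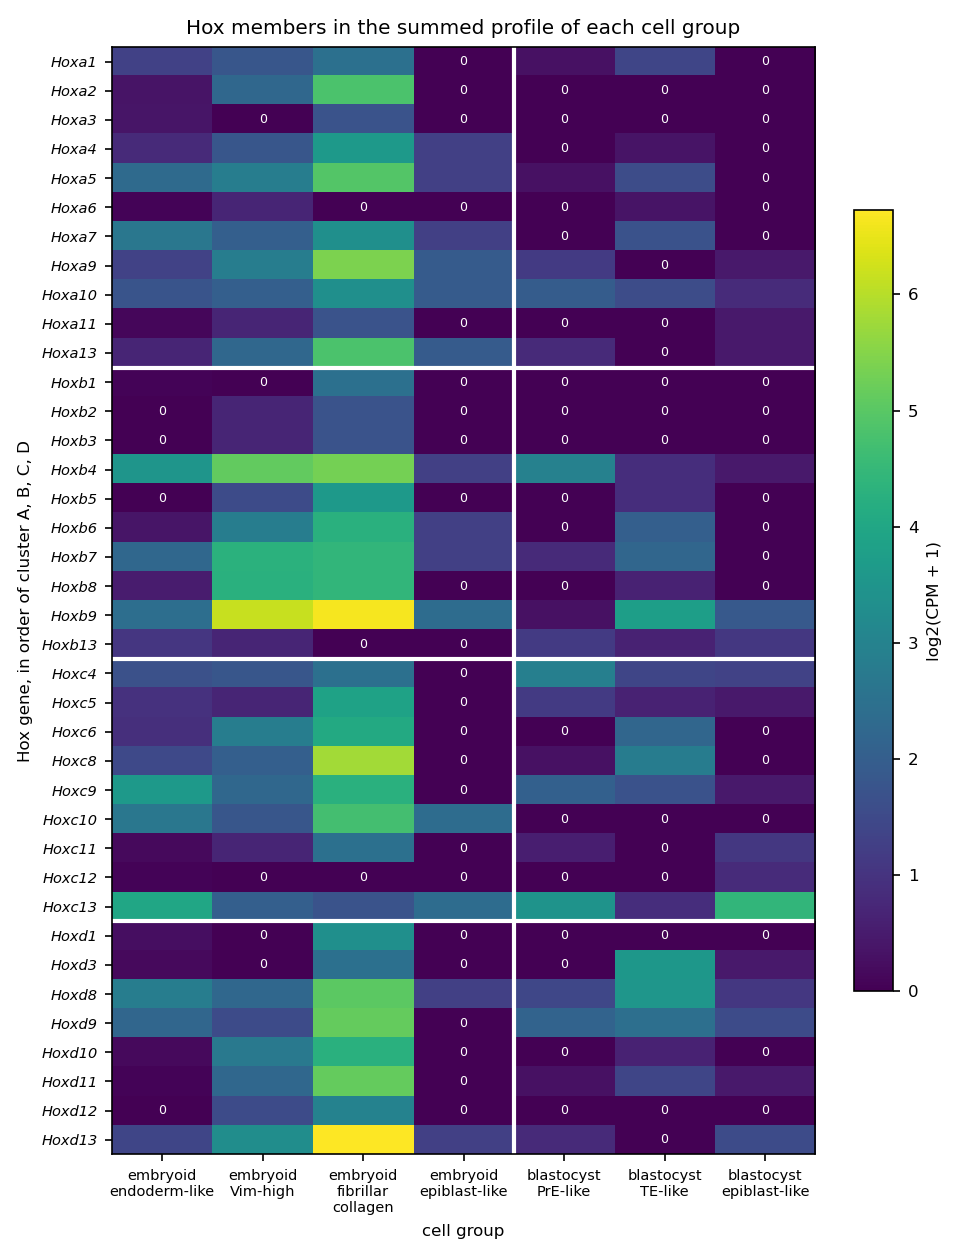
Level of each of the 38 members (rows, in order of cluster and paralog) in each cell group (columns) as log2(CPM + 1), from 1 library per condition and without error; 0 marks no UMI. The fibrillar collagen column is bright for most members, the endoderm-like column is led by Hoxc13, Hoxc9 and Hoxb4, and Hoxd3 stands out in the TE-like column.

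Endoderm-like cells of the embryoid had a short list of leading members. Hoxc13, known for its part in hair and nail keratin expression, had 378 UMIs (14.7 CPM, 13.2 to 16.2) in 344 of 4698 cells. Hoxc9, a thoracic patterning gene, had 294 UMIs (11.4 CPM) in 267 cells, and Hoxb4, a gene of the neck vertebrae and of blood progenitors, had 269 UMIs (10.4 CPM) in 254 cells. Next came Hoxd8 with 159 UMIs (6.16 CPM), Hoxc10 with 138 (5.35 CPM), Hoxa7 with 137 (5.31 CPM), Hoxb9 with 113 (4.38 CPM) and Hoxa5 with 103 (3.99 CPM). At 2000 UMIs per cell the expected share of cells with Hoxc13 was 2.84% (2.37 to 3.37), against 0.515% (0.000744 to 4.5) in embryoid epiblast-like cells, and these intervals overlap. A single member was therefore seen in only a few percent of endoderm-like cells, whichever member it was.

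The 9 endoderm-like clusters were not alike. Their summed Hox level ran from 53.8 CPM (45.5 to 63.2) in the cluster led by Apoa1, Apoc2 and Cubn to 124 CPM (110.1 to 139) in the cluster led by Sfrp5, Frzb and Nefl. The clusters led by Ctgf and F3, by Nepn and Rbp4, by Dab1 and by AW112010 and Igf1 had 121, 107, 106 and 97.1 CPM. Those led by Tfec and Cubn, by Ibsp and by Hspa12b had 68.0, 61.9 and 55.4 CPM. Apoa1, Cubn and Tfec are visceral endoderm genes, and clusters led by them lay in the lower group, as did the Ibsp and Hspa12b clusters. Apob was among the 10 leading genes of both the Apoa1 cluster and the Nepn and Rbp4 cluster, which had 107 CPM. The order therefore does not follow visceral endoderm genes as a whole. HoxA also differed among the clusters, from 7.28 CPM (5.33 to 9.71) in the Ibsp cluster to 32.7 CPM (25.8 to 40.9) in the Sfrp5 cluster. Median depth differed among these clusters between 2213.5 and 7923 UMIs, with 7923 in the Apoa1 cluster and 3810 in the Sfrp5 cluster, and the part of depth in the order was not tested.

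**Figure D5:**
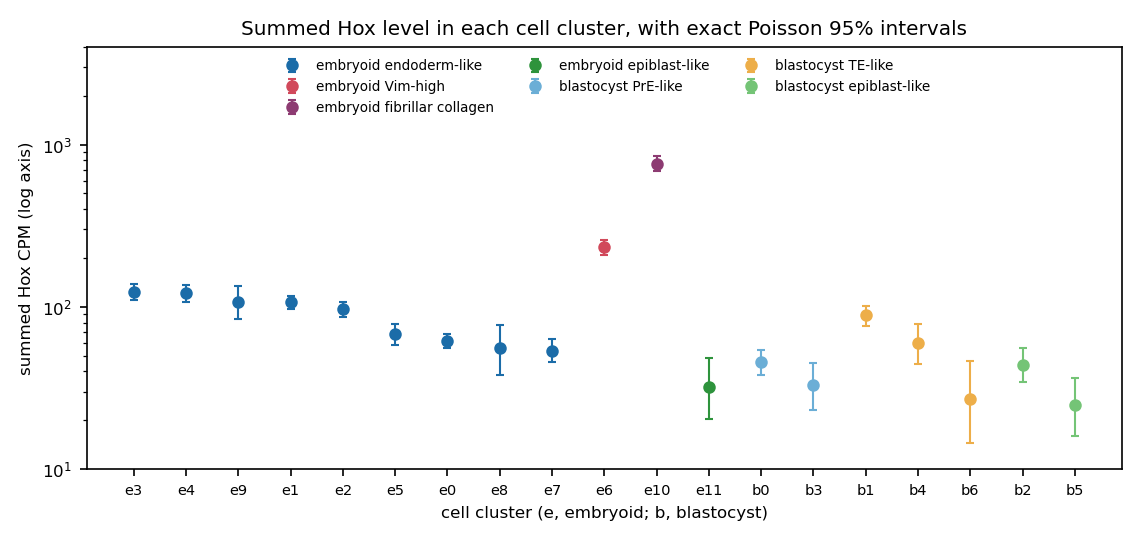
Summed Hox CPM (vertical log axis) in each cell cluster of the embryoid (e) and blastocyst (b), coloured by cell group, with exact Poisson 95% intervals from 1 library per condition. Endoderm-like clusters lie between 53.8 and 124 CPM, below the Vim-high cluster at 232 and the fibrillar collagen cluster at 765 CPM.

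Vim-high cells had 2.69-fold (2.40 to 3.00) the Hox level of endoderm-like cells, and the difference was carried by HoxB. HoxB was 7.42-fold higher (6.35 to 8.66), HoxA 1.95-fold (1.43 to 2.60) and HoxD 2.16-fold (1.52 to 3.00), whereas HoxC was 1.66-fold lower (1.19 to 2.38). The HoxD difference rests on 11 of the 330 cells, described below. The other 319 were chosen for holding no UMI of HoxA or HoxD paralogs 11 to 13. In them HoxD was at 6.47 CPM (3.10 to 11.9) and HoxA at 20.1 CPM (13.6 to 28.5). The 4640 endoderm-like cells likewise without such a UMI had HoxD at 10.05 CPM (8.85 to 11.4) and HoxA at 15.8 CPM (14.3 to 17.4). Hoxb9, a thoracic patterning gene, had 113 UMIs in each group, which is 70.8 CPM (58.4 to 85.1) in 85 of 330 Vim-high cells and 4.38 CPM in 104 of 4698 endoderm-like cells. That is 16.2-fold higher (12.3 to 21.2). At 2000 UMIs it was expected in 13.2% (9.59 to 17.5) of Vim-high cells, 0.904% of endoderm-like cells and 1.31% (0.0745 to 5.85) of embryoid epiblast-like cells. The endoderm-like share of Hoxb9 thus lies inside the epiblast-like interval, and the Vim-high share lies above it. That interval is wide because it rests on 3 UMIs. Whether the Hoxb9 UMIs of endoderm-like cells exceed background was not tested.

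Other HoxB genes of the middle of the cluster went the same way. Hoxb8, whose promoter is shown above and which acts in the spinal cord, had 29 UMIs (18.2 CPM) in Vim-high cells and 11 UMIs (0.426 CPM) in endoderm-like cells, 42.6-fold higher (20.7 to 94.5). Hoxb7 had 30 UMIs (18.8 CPM) against 3.76 CPM, and Hoxb6 10 UMIs (6.27 CPM) against 0.31 CPM. Hoxb4 had 54 UMIs (33.8 CPM) against 10.4 CPM, 3.24-fold higher (2.38 to 4.36). Hoxc13 was 4.68-fold lower (1.99 to 14.5) with 5 UMIs, and Hoxc9 was 3.03-fold lower (1.38 to 8.33) with 6 UMIs. Of 25 members tested 12 were called higher, where 13.3% of all genes were, and 2 lower, where 10.4% were. The median log2 difference was 0.55 over these members and 0.01 over all genes tested. With 10 CPM added in place of 1 CPM, 4 members were called higher and 0 lower, without a percentage of all genes for that setting.

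A small number of Vim-high cells carried a different Hox pattern. In 11 of the 330 cells there was a UMI of HoxA or HoxD paralogs 11 to 13, and these cells held 30 such UMIs. Their other Hox genes summed to 738 CPM (522 to 1013), with HoxA at 272 and HoxD at 155 CPM. In the other 319 cells Hox genes summed to 196 CPM (175 to 220), with HoxB at 150.2 and HoxC at 19.4 CPM. HoxB made up 76.6% of the Hox UMIs of those 319 cells. Without the 11 cells 8 members were called higher than in all endoderm-like cells and 5 lower. The percentage of all genes called was not computed for that setting. Leaving these cells out removes every HoxA and HoxD 11 to 13 UMI of the group, so the levels of those members are fixed by the choice. The 11 cells had 757 CPM of Col1a1 against 253 in the others and 3476 CPM of Vim against 2932, with median depths of 4736 and 4281 UMIs. This split was made after the values had been seen.

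Fibrillar collagen cells had 8.85-fold (7.86 to 9.93) the Hox level of endoderm-like cells, across all 4 clusters. HoxD was 20.5-fold higher (16.3 to 25.6), HoxB 10.6-fold (8.44 to 13.2), HoxA 9.83-fold (7.55 to 12.6) and HoxC 3.72-fold (2.83 to 4.83). Posterior genes led the list. Hoxd13, which shapes the digits and the end of the gut, had 46 UMIs (105 CPM, 76.9 to 140.03) in 23 of 108 cells, against 42 UMIs (1.63 CPM) in 39 of 4698 endoderm-like cells, 64.5-fold higher (41.5 to 100.4). Its expected share at 2000 UMIs was 15.5% (8.98 to 24.3), against 0.317% in endoderm-like and 0.212% (2.9e-08 to 3.94) in epiblast-like cells. Hoxd11, a gene of the forearm, had 15 UMIs against 1 UMI, a ratio of 883 (136 to 37170). Hoxa13, the HoxA partner of Hoxd13 in digits and hindgut, had 12 UMIs (27.4 CPM) against 0.62 CPM, 44.1-fold higher (19.1 to 99.5).

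Thoracic and anterior members were also higher in these cells. Hoxb9 had 43 UMIs (98.1 CPM, 71.0 to 132) in 26 cells, 22.4-fold above endoderm-like cells (15.4 to 32.1). Hoxc8, which patterns the thoracic vertebrae, had 24 UMIs (54.8 CPM), 30.1-fold higher (17.6 to 50.2). Hoxa9 had 18 UMIs (41.1 CPM), Hoxd9 and Hoxd11 had 15 each (34.2 CPM), and Hoxd8 had 14 (32.0 CPM). Hoxa2, the gene of the second branchial arch, had 12 UMIs (27.4 CPM) in 10 cells against 7 UMIs in the endoderm-like cells, 100.9-fold higher (36.6 to 302.5). Hoxc13 had 1 UMI in fibrillar collagen cells against 378 in endoderm-like cells, 6.42-fold lower (1.15 to 254). Of 26 members tested 21 were called higher, where 15.1% of all genes were, and 2 lower (Hoxb13 and Hoxc13), where 17.1% were. The median log2 difference was 2.88 over these members and -0.04 over all genes.

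The fibrillar collagen cells were 3.29-fold (2.83 to 3.82) above the Vim-high cells, which share no cells with them. HoxD was 9.51-fold higher (6.57 to 13.98), HoxC 6.17-fold (4.02 to 9.59), HoxA 5.04-fold (3.48 to 7.35) and HoxB 1.43-fold (1.12 to 1.82). Hoxd13 was 12.0-fold higher (6.46 to 23.6) and Hoxc8 17.5-fold (6.54 to 58.7). For Hoxb9 (98.1 and 70.8 CPM) and Hoxb4 (38.8 and 33.8 CPM) the intervals of the ratio, 0.952 to 1.99 and 0.623 to 2.01, included 1. Of 18 members tested 14 were called higher, where 6.28% of all genes were, and 0 lower, where 10.1% were. Under a minimum of 2000 genes per cell and at a Leiden resolution of 0.5 the Vim-high cells joined the fibrillar collagen cluster, whose Hox level was then 330.3 and 346 CPM and whose Hoxd13 level was 20.4 and 29.4 CPM. The contrast between these groups and the height of the fibrillar collagen level thus hold for the finer division of cells.

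Within the fibrillar collagen group, 29 cells had a UMI of HoxA or HoxD paralogs 11 to 13 and 79 had none. The other Hox genes summed to 830 CPM (674 to 1010.3) in the 29 cells and 499 CPM (424 to 582) in the 79. The 29 cells had 369 CPM of Col1a1 and 595 of Vim, against 771 and 1556 in the 79, and 1148 CPM of Twist1 against 734. Tbx4, a hindlimb and allantois gene, had 50.3 CPM (18.5 to 109) against 6.27 (0.760 to 22.7), and Hand1 277 against 317. The groups of cells here were formed by a Hox readout, so these values are a description. Their median depths were 3666 and 3329 UMIs.

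Embryoid epiblast-like cells had 2.69-fold less Hox than endoderm-like cells (1.79 to 4.25). Their 23 UMIs lay in 13 of 107 cells and came from 14 members, with 3 UMIs each of Hoxb9, Hoxc10 and Hoxc13. Of 22 members tested 11 were called lower, where 20.9% of all genes were, and 1 higher (Hoxa13, with 2 UMIs), where 13.1% were. The 5 highest cells held 15 of the 23 UMIs. The 13 Hox-positive cells had Col3a1 at 126 CPM (70.3 to 207) and a median of 9271 UMIs, whereas the other 94 cells had 0 UMIs of Col3a1 and a median of 6251.5. The part of those cells' other RNA in the Hox level was not tested. Against the epiblast-like cells of the blastocyst the Hox level was 1.13-fold lower, with a ratio of 0.88 (0.53 to 1.4). Hoxc13 was 4.89-fold lower (1.59 to 24.5) in the embryoid, with 3 against 54 UMIs. It was the 1 member called lower of 2 tested, where 12.4% of all genes were, and 0 were called higher, where 14% were.

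Endoderm-like cells of the embryoid and PrE-like cells of the blastocyst both had all 16 primitive endoderm markers at 20 CPM or more, and the embryoid cells had 2.06-fold (1.76 to 2.42) the Hox level. The endoderm-like cells are those used in the 3 embryoid comparisons above. HoxA was 3.13-fold higher (2.04 to 5.05), HoxB 2.28-fold (1.63 to 3.27), HoxD 1.96-fold (1.30 to 3.08) and HoxC 1.73-fold (1.39 to 2.18). Members that were absent or nearly so from the PrE-like cells made the largest differences. Hoxa7 had 137 UMIs in the embryoid and 0 in the blastocyst cells, at least 7.30-fold higher, and Hoxc10 had 138 and 0, at least 7.35-fold higher, against a floor of 3 UMIs over the PrE-like profile. Hoxb9 had 113 UMIs against 1, a ratio of 18.1 (3.18 to 720), and Hoxa5 103 against 1, a ratio of 16.5 (2.89 to 657).

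The 3 members that led the endoderm-like profile were closer in the blastocyst. Hoxc13 had 9.94 CPM (7.14 to 13.5, 41 UMIs) in PrE-like cells against 14.7 CPM, 1.47-fold (1.07 to 2.09), and Hoxb4 had 6.79 CPM (4.51 to 9.81, 28 UMIs) against 10.4 CPM, 1.54-fold (1.04 to 2.36). Hoxc9 had 13 UMIs (3.15 CPM) against 11.4 CPM, 3.62-fold (2.08 to 6.87). Hoxc4, a cervical gene, went the other way with 27 UMIs (6.55 CPM) in PrE-like cells against 56 UMIs (2.17 CPM), 3.02-fold (1.83 to 4.86). Hoxc13 and Hoxb4 were thus among the leading members in both endoderm-like and PrE-like cells. Of 22 members tested 8 were called higher in the embryoid, where 17.1% of all genes were, and 1 lower, where 11.2% were. With 10 CPM added none was called either way. These cells also differ in library, strain and depth (medians of 4847.5 and 9410 UMIs), which cannot be told apart from the condition.

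Within the blastocyst TE-like cells had 1.75-fold (1.44 to 2.14) the Hox level of PrE-like cells and 2.02-fold (1.59 to 2.57) that of epiblast-like cells. HoxD was 4.64-fold above PrE-like cells (2.97 to 7.51) and HoxB 2.45-fold (1.64 to 3.73), while HoxC was 1.43-fold lower (1.01 to 2.05). Hoxd3, known for shaping the first neck vertebrae, had 39 UMIs (10.9 CPM, 7.73 to 14.9) in 34 of 376 TE-like cells, 0 in PrE-like cells and 1 in epiblast-like cells. It was at least 14.9-fold higher than in PrE-like cells, and had 3 UMIs among the 4698 endoderm-like cells of the embryoid. The Hoxd3 UMIs lay in the TE-like clusters led by Serpinb6b and by Ctsll3, at 9.7 and 20.3 CPM, with 0 in the 42 cells of the cluster led by Cald1. At 2000 UMIs it was expected in 2.25% (0.985 to 4.35) of TE-like and 0.0433% (2.7e-16 to 1.57) of epiblast-like cells. Because Hoxd3 overlaps its neighbours, the transcript behind these UMIs was not identified.

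Other TE-like members were Hoxb9 with 45 UMIs (12.5 CPM, 9.15 to 16.8) against 1 UMI in PrE-like cells, a ratio of 51.7 (8.82 to 2088), and Hoxd8 with 38 UMIs (10.6 CPM) against 7, 6.24-fold higher (2.75 to 16.6). Hoxc8 had 22 UMIs (6.13 CPM) against 1, a ratio of 25.3 (4.09 to 1044). In PrE-like cells 3 members were higher instead. Hoxc13 was 11.9-fold above TE-like cells (3.79 to 60.0), Hoxb4 8.12-fold (2.51 to 41.7) and Hoxc4 3.91-fold (1.58 to 11.6). Of 13 members tested 7 were called higher in TE-like than in PrE-like cells, where 11.4% of all genes were, and 3 lower, where 23.5% were. With a limit of 10% mitochondrial UMIs 116 TE-like cells were left, and 1 member was called higher. With 10 CPM added 2 were.

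Blastocyst epiblast-like cells were led by 1 member. Hoxc13 had 54 UMIs (20.5 CPM, 15.4 to 26.8) in 46 of 257 cells, 2.07-fold above PrE-like cells (1.35 to 3.18) and 24.6-fold above TE-like cells (7.97 to 123). All other members together gave 42 of their 96 Hox UMIs. At 2000 UMIs the expected share of cells with Hoxc13 was 4.51% (2.28 to 7.89), against 2.18% (1.00 to 4.11) of PrE-like and 0.192% of TE-like cells. For this member the epiblast-like cells are the highest group and give no background. Of 7 members tested against PrE-like cells 0 were called higher, where 12% of all genes were, and 4 were called lower (Hoxa10, Hoxb4, Hoxc4 and Hoxc9), where 15.2% were. Of 10 tested in TE-like against epiblast-like cells 7 were called higher, where 15.2% of all genes were, and 1 lower, where 24.7% were. With 10 CPM added 1 was called higher, and with a limit of 10% mitochondrial UMIs 2 were. These 3 blastocyst comparisons use the same cells in pairs.

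Genes that work with the Hox proteins or control the clusters were read from lists, in the same summed profiles. Of 9 genes for TALE cofactors, the homeodomain partners of Hox proteins, 4 were called higher in Vim-high and 6 in fibrillar collagen cells than in endoderm-like cells, where 13.3% and 15.1% of all genes were, and 0 lower in either, where 10.4% and 17.1% were. Pbx3 was at 10.003, 129 and 123 CPM in endoderm-like, Vim-high and fibrillar collagen cells, and Meis2 at 12.1, 82.1 and 208 CPM. The median log2 differences of the list were 0.76 and 1.95, and those of all genes 0.01 and -0.04. The cofactor genes Pbx2 and Pknox1 were present in all 7 groups.

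Of the 14 genes for posterior signals and their targets, 9 of 10 tested were called higher in Vim-high cells and 7 of 8 in fibrillar collagen cells (13.3% and 15.1% of all genes), with Gata5 lower in both (10.4% and 17.1%). T, the brachyury gene of primitive streak and notochord, was at 0.116, 29.4 and 54.8 CPM in endoderm-like, Vim-high and fibrillar collagen cells. Wnt5a was at 10.5, 86.5 and 258 CPM and Lef1, a Wnt effector, at 1.12, 111 and 173 CPM. Cdx2, a trophectoderm factor and activator of Hox genes, was at 294 CPM in TE-like cells and at 9.27, 5.01 and 9.13 CPM in these 3 embryoid groups. In the blastocyst it had 0.485 CPM in PrE-like cells. Cdx1 had 20.4 CPM in TE-like cells and 0 UMIs in the 3 embryoid groups. Of 14 genes of the retinoid pathway tested, 6 were called higher and 4 lower in Vim-high than in endoderm-like cells, where 13.3% and 10.4% of all genes were. In fibrillar collagen against endoderm-like cells 6 were called higher and 3 lower, where 15.1% and 17.1% of all genes were. Cyp26a1, which degrades retinoic acid, was at 450.4, 154 and 41.1 CPM, and Aldh1a2, which makes it, had 57.1 CPM in fibrillar collagen cells, 0.31 in endoderm-like cells and 0 UMIs in Vim-high cells. Aldh1a3, another gene for its synthesis, had 88.3 CPM in Vim-high cells, 0.0775 in endoderm-like cells and 0 UMIs in fibrillar collagen cells.

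Chromatin regulators of the clusters had medians close to those of all genes. The 10 tested PRC2 genes had medians of 0.06 and 0.17 (log2) in Vim-high and fibrillar collagen against endoderm-like cells, the 18 PRC1 genes -0.03 and -0.04, and the 14 trithorax genes 0.07 and 0.07, where all genes had 0.01 and -0.04. Among the PRC2 genes Jarid2 was called higher and Ezh1 and Rbbp7 lower in both comparisons. Among the PRC1 genes Phc1 was called higher and Pcgf5 and Cbx7 lower in both, and among the trithorax genes Mllt3 was called higher in both. Of 17 noncoding genes of the clusters 3 had a row in the tables. Hoxb3os, an antisense gene of HoxB, had 80 UMIs (50.1 CPM) in Vim-high cells, 27 UMIs (61.6 CPM) in fibrillar collagen cells and 15 UMIs (0.582 CPM) in endoderm-like cells, whereas the overlapping Hoxb3 had 1, 1 and 0 UMIs. Of the genes that flank the clusters 3 of 14 tested were called higher in Vim-high cells and 0 lower, and 4 and 2 of 13 in fibrillar collagen cells. Of all genes 13.3% were higher and 10.4% lower in the first comparison, and 15.1% and 17.1% in the second. Among them Evx1, next to HoxA, had 10.03 CPM in Vim-high and 0.0388 in endoderm-like cells.

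Over the 13 cell clusters of the embryoid, the genes whose level was most like the summed Hox level were Pafah1b2, Nr2f2, Arhgap28, Zkscan8 and Ctnna2. Their Pearson correlations were 0.957, 0.956, 0.950, 0.950 and 0.948 among 9407 genes compared. The 13 points share 1 library and differ in depth. Without the fibrillar collagen cluster the correlations were 0.916, 0.931, 0.952, 0.900 and 0.891. Nr2f2, a nuclear receptor of mesenchyme, was at 169 CPM in fibrillar collagen cells and at a median of 14.7 CPM over the clusters.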

How the data were processed

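The deposited tables, 1 for the embryoid library and 1 for the blastocyst library, hold UMI counts per gene and barcode. The authors made these counts on mm10 with STAR 2.7.1a and featureCounts 1.6.4 (Subread), besides UMI-tools 1.0.1 and bcl2fastq 2.19.1.403, per the submitters' processing notes. Their gene annotation and strand setting: not given in the sources used here. Barcodes with at least 1000 UMIs, 500 genes and at most 25% mitochondrial UMIs were kept. Scrublet was run, and cells were clustered with scanpy 1.11.5 (2000 variable genes without Hox and list genes, 30 components, 20 neighbours, Leiden resolution 1). Cells were summed per group without further normalization than CPM. Members with at least 20 UMIs are named singly. Genes with at least 10 UMIs in the 2 profiles of a comparison were read as log2(CPM + 1) differences, called from 2-fold. With 1 library per condition there is no test, and no adjusted p exists. The calling step was tested on simulated Poisson counts of summed profiles, with large changes in genes of many UMIs. Changes near 2-fold, changes in genes with few UMIs and UMIs held by few cells were not simulated. That test therefore does not bear on such calls of members. Members, lists and alternatives were chosen with earlier results of these data known. Alternatives covered the filters on barcodes, doublets, the resolution, the scaling, the depth of thinning, the added CPM and the filter on UMIs.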

Additional observations from a re-analysis of the deposited data

How the results depend on the processing

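Of 292 values recomputed under alternatives, 244 stayed within their counting interval or, for counts of members, within 1.5 times the first count. The other 48 moved. Among them 6 at 1000 UMIs and 6 at 4000 UMIs were shares of positive cells set against the interval at 2000 UMIs. Such shares change with the depth by construction. The causes of the other moves were not tested. Keeping doublets moved none of 43. No embryoid cell had been called a doublet, so values of embryoid cells alone could not move, and only 17 blastocyst barcodes were added. Leaving out the 67 of 4698 endoderm-like cells with a collagen UMI moved none of 12, where so few cells leave little room for change. Counting each cell once per gene moved none of 5. The order of the 5 highest Hox levels held in all settings that gave every group except median-of-ratios scaling (endoderm-like 81.4, TE-like 94.98 CPM). A minimum of 2000 genes and resolution 0.5 merged Vim-high with fibrillar collagen cells, which then had 330.3 and 346 CPM, 37.7% and 38.1% Hox-positive cells at 2000 UMIs, and 1 and 1 member lower than in endoderm-like cells. With at most 10% mitochondrial UMIs PrE-like cells had 34.6 and TE-like cells 55.3 CPM, HoxD made up 30.9% in TE-like cells, 1 member was lower in Vim-high than in endoderm-like cells, 0 lower in endoderm-like than in PrE-like cells, 1 higher in TE-like than in PrE-like and 2 than in epiblast-like cells. Resolution 2.0 gave 4 members lower in Vim-high than in endoderm-like cells. Thinned to 1000 UMIs the positive shares were 8.34% (endoderm-like), 18.0% (Vim-high), 45.0% (fibrillar collagen), 4.55% (PrE-like), 6.71% (TE-like) and 3.64% (blastocyst epiblast-like), and at 4000 UMIs 26.8%, 49.8%, 80.0%, 14.4%, 24.4% and 13.8%. With 10 CPM added, Vim-high against endoderm-like cells gave 4 members higher and 0 lower, fibrillar collagen against endoderm-like cells 1 lower, endoderm-like against PrE-like cells 0 and 0, TE-like against PrE-like cells 2 and 0, and TE-like against epiblast-like cells 1 higher. With no filter on UMIs, 28 members were higher in fibrillar collagen than in Vim-high cells, 11 in TE-like than in PrE-like cells, and 11 higher and 3 lower in TE-like than in epiblast-like cells. Without the 11 Vim-high cells with posterior HoxA or HoxD UMIs, an alternative chosen after seeing the data, Vim-high cells had 196 CPM, 76.6% HoxB and 5 members lower than in endoderm-like cells. Depth limits single members: in the endoderm-like profile 1 UMI is 0.0388 CPM, in the fibrillar collagen profile 2.28 CPM.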

Other observations

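A cluster of 85 embryoid barcodes with a median of 0.187% mitochondrial UMIs and 2911 UMIs was kept out of the cell groups. It had 38 Hox UMIs (131 CPM, 92.9 to 180.3), of which 13 were Hoxc13 (44.9 CPM, 23.9 to 76.8). Its primitive endoderm markers summed to 18924 CPM, against 18024 in endoderm-like cells, whose Hoxc13 level was 14.7 CPM. Barcodes removed by the filters had 63.6 Hox CPM (23.3 to 138) in the embryoid (218 barcodes) and 28.2 CPM (17.2 to 43.6) in the blastocyst (208 barcodes).

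Homeobox genes outside the clusters were read in the same way. Of 25 tested 12 were called higher in Vim-high than in endoderm-like cells, where 13.3% of all genes were, and 5 lower, where 10.4% were. Of 24 tested 14 were higher in fibrillar collagen cells, where 15.1% of all genes were, and 5 lower, where 17.1% were. Prrx1, a gene of limb mesenchyme, was at 0.116, 75.8 and 228 CPM in endoderm-like, Vim-high and fibrillar collagen cells. Meox1, a somite gene, had 25.7 CPM in Vim-high cells and 1 UMI in fibrillar collagen cells. Pitx1, a hindlimb gene, went the other way with 338, 121 and 89.0 CPM, and Gsx2 had 87 UMIs in endoderm-like cells and 0 in the other 2 groups. Irx3 was at 110 CPM in blastocyst TE-like cells and at 1.21 CPM in PrE-like cells.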
